A study of Mus musculus with 123 samples.

Results

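Tetrahydrobiopterin (BH4) is the cofactor that nitric oxide synthases and the aromatic amino acid hydroxylases need to work. Gch1, Pts and Spr act in that order to make BH4 from GTP, Pcbd1 and Qdpr return the oxidised cofactor to BH4 after each round of hydroxylation, and Nos1, the neuronal nitric oxide synthase, uses BH4 to turn arginine into citrulline and nitric oxide. In sensory ganglia the pathway is known for its link to pain after nerve damage, and Nos1 for its presence in a fraction of small neurons. These 6 genes were taken by symbol from the 24134 genes measured, and all 6 were found.

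Single dorsal root ganglion (DRG) neurons of adult mice, 2 months old, were measured after sciatic nerve transection (SNT), a cut through the nerve of the right thigh, and neurons of the contralateral side were the control. Day-3 cells came from L5 ganglia of CAST/Eij male X C57BL/6 female F1 mice, which were female by the methods. Day-7 cells came from L3-L5 ganglia of C57BL/6 mice labelled female or male. Somata were picked by hand and amplified with the Smart-seq2 method, and day 3 and day 7 also differed in read length, read pairing and sequencer. After 11 day-3 cells removed by the authors as outliers (4 control, 7 SNT), 106 of 117 cells remained, with 18 control and 41 SNT cells at day 3 and 14 control and 33 SNT cells at day 7. The day-7 control cells were 7 female and 7 male, the day-7 SNT cells 16 female and 17 male. The protocol label of the day-7 cells names both 3 and 7 days; their names and the study's methods put them at day 7. The labels tie no cell to an animal. Each side of each day therefore counts as 1 sample, and values over cells are given without a test.

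A pool of dissociated F1 neurons from each side at day 3 was lysed and split into 3 libraries, so that p-values over the 3 libraries a side measure technical spread of 1 lysate and not the spread between animals. For these 6 pooled libraries the labels conflict. The column names and the identifiers beneath them give opposite sides, and the source label calls all 6 intact. The sides were read from the column names, and the other reading would turn the sign of every pooled difference below. Atf3, a transcription factor induced by axon injury, had a mean of 13.4 CPM (counts per 1000000 counts of the library) in the control pools and 1466 CPM in the SNT pools, and 7 of 7 injury genes checked were higher in the SNT pools and in day-3 SNT cells. At day 7, 6 of the 7 were past a log2 ratio of 1 and Jun was at 0.56. Snap25, Tubb3, Uchl1, Prph and Isl1, all neuronal genes, exceeded 10 CPM in 106 of 106 kept cells, and Rbfox3 did so in 101.

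Library totals were 727212, 839135 and 563462 counts in control pools 1, 2 and 3 and 1672826, 1148849 and 2003817 counts in SNT pools 1, 2 and 3. Totals over kept cells had medians of 862619 counts (277390 to 1368842) in day-3 control cells and 1323932 (611647 to 1849130) in day-3 SNT cells. At day 7 control cells had a median of 738947 counts (range 510014 to 1018545) and SNT cells one of 575179 (range 261351 to 965292). The SNT side was thus the deeper one in the pools and at day 3 and the shallower one at day 7, which bears on genes near the limit of detection such as Gch1 and Nos1.

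None of the 6 genes passed the pooled comparison. With edgeR's quasi-likelihood test, an adjusted p below 0.05 (Benjamini-Hochberg) and a log2 difference beyond 1 in either direction, 0 of 6 changed, against 16% of all genes (2157 of 13509, 1196 higher and 961 lower in SNT pools). With unadjusted p below 0.05, edgeR gave 2 of the 6, Spr and Qdpr. DESeq2 gave 0 of 6 by the same criteria and 1 by unadjusted p, and limma gave 0 and 2. By adjusted p alone, without the limit on size, edgeR gave 1 of 6, Qdpr, against 24.8% of all genes, and with library size alone it gave 2, Spr and Qdpr. Among day-3 cells 0 of 6 had a log2 ratio of mean CPM beyond 1, against 13.5% of 14139 genes. Among day-7 cells 2 of 6 did, Gch1 higher and Nos1 lower on the SNT side, against 10.3% of 13701 genes. The median log2 difference of the 6 was -0.05 in pools, -0.17 at day 3 and -0.26 at day 7, where that of all genes was 0.02, -0.04 and -0.04.

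Spr, Qdpr and Pcbd1 shared a pattern in the pools that depends on scaling. In CPM by library total, every SNT library lay below every control library for these 3 of 6 genes, which was so for 21.3% of all genes. After scaling with TMM factors (trimmed mean of M values, 1.06 in each control library and 0.923 to 0.958 in the SNT libraries) this held for 0 of 6, against 16.6% of all genes. The factors moved the median log2 difference of all genes from -0.14 to 0.02 and the higher share of changed genes from 43.7% (980 higher, 1264 lower) to 55.4%. The log2 differences given for pools are relative to the TMM scaling. A pooled difference could come from fewer neurons of a type, another amount of RNA from glia, or less of a gene's RNA per neuron. These cannot be told apart here.

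Gch1 encodes GTP cyclohydrolase, the first and rate-limiting enzyme of BH4 synthesis. Its level in control pools 1, 2 and 3 was 22, 1.19 and 0 CPM, from 16, 1 and 0 counts. SNT pools 1, 2 and 3 held 12, 5.22 and 8.98 CPM, from 20, 6 and 18 counts. The groups overlapped, since control pool 1 was above all SNT pools and the other control pools were below all of them. The log2 difference was 0.32 (SE 0.68, adjusted p = 0.789, edgeR quasi-likelihood with Benjamini-Hochberg). It turned on single control libraries: without control pool 1 it was 3.61 (adjusted p = 0.0167, edgeR, Benjamini-Hochberg), which would pass both criteria, without control pool 2 it was -0.25 and without control pool 3 -0.17.

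In day-3 control cells Gch1 had a lowest value of 0, a median of 4.36 and a highest of 23.7 CPM. In day-3 SNT cells these were 1.35, 7.48 and 68.0 CPM. The ranges overlapped widely: 5 of 41 SNT cells exceeded the highest control cell and 27 exceeded the control median. The means of 12.9 ± 15.8 CPM (SD over 41 SNT cells) and 6.37 ± 7.1 CPM (SD over 18 control cells) gave a log2 ratio of 0.91, under the limit of 1, which it passed with a mean of log2 values (1.04) and with a pseudocount of 0.1 CPM (1.004). Gch1 was above 10 CPM in 16 of 41 SNT cells (39%, exact 95% interval 24.2 to 55.5) and 4 of 18 control cells (22.2%, 6.41 to 47.6), and these intervals, which cover counting error only, overlapped. It was at 0 in 5 control cells and in 0 of 41 SNT cells. At an equal depth of 200000 counts a cell, that contrast shrank to 12 of 18 control cells above 0 (66.7%, 41 to 86.7) and 30 of 41 SNT cells (73.2%, 57.1 to 85.8), so a difference in detection was not visible at that depth. The log2 ratio of means with cells thinned to that depth was 0.77, also under the limit of 1.

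At day 7 Gch1 was near the limit of detection. Control cells ran from 0 through a median of 0 to 2.95 CPM, and SNT cells from 0 through a median of 0 to 42.2 CPM. Most cells of either side had none, 9 of 14 control and 19 of 33 SNT cells, while 11 SNT cells exceeded every control cell. Means of 3.92 ± 8.18 CPM (SD, 33 SNT cells) and 0.733 ± 1.1 CPM (SD, 14 control cells) gave a log2 ratio of 1.505. The ratio rests on 92 counts summed over SNT cells and 8 over control cells. It was 0 for medians in place of means, 0.64 for means of log2 values, 0.37 with a pseudocount of 10 CPM and 0.73 with cells thinned to 200000 counts. Gch1 exceeded 10 CPM in 5 of 33 SNT cells (15.2%, 5.11 to 31.9) and in 0 of 14 control cells, where 0 allows up to 23.2%. Of the 11 SNT cells above every control cell, 8 were female and 3 male. The log2 ratio was 2.27 among female and 0.28 among male cells (1.74 and -0.18 without the highest SNT cell of that sex), and female SNT cells were also deeper (median 740956 counts) than male ones (511261). The part of depth in this was not tested.

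Pts encodes 6-pyruvoyltetrahydropterin synthase, which acts on the product of Gch1. Control pools 1, 2 and 3 held 42.7, 21.5 and 37.3 CPM and SNT pools 40.1, 29.5 and 29.99 CPM. All 3 SNT values lay inside the control range. The log2 difference was 0.16 (SE 0.31, adjusted p = 0.770, edgeR quasi-likelihood with Benjamini-Hochberg), and it was -0.12 without control pool 2, the lowest library. Day-3 control cells had a lowest, median and highest Pts of 8.86, 31.7 and 72.0 CPM and SNT cells of 17.6, 38.4 and 84.4 CPM, for a log2 ratio of 0.27. Day-7 control cells had 13.3, 31.3 and 57.9 CPM and SNT cells 0, 28 and 64.9 CPM, for a log2 ratio of -0.18. Pts was found in nearly all neurons of both sides, though 6 of 33 day-7 SNT cells lay below the lowest control cell. It exceeded 10 CPM in 17 of 18 and 41 of 41 cells at day 3 and in 14 of 14 and 29 of 33 at day 7.

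Spr encodes sepiapterin reductase, which completes BH4. Control pools 1, 2 and 3 held 88.0, 129 and 121 CPM and SNT pools 67.1, 70.5 and 85.8 CPM. The highest SNT and the lowest control library were nearly level, and under TMM scaling SNT pool 3 (91.7) passed control pool 1 (83.1). The log2 difference was -0.43 (SE 0.20), with p = 0.0425 before and 0.126 after Benjamini-Hochberg adjustment in edgeR's quasi-likelihood test. With library size alone the difference was -0.59 (adjusted p = 0.0288, edgeR with Benjamini-Hochberg). The adjusted p was 0.0468 without control pool 1 in edgeR with Benjamini-Hochberg adjustment, but in both settings the difference stayed under the limit on size. In day-3 cells Spr had a lowest, median and highest of 55.5, 82.8 and 121 CPM on the control side and 43.8, 81.8 and 141 CPM on the SNT side. The medians were nearly equal and the log2 ratio was 0.05. In day-7 cells these were 40.2, 64.3 and 107 CPM on the control side and 19.9, 49.9 and 117 CPM on the SNT side, with a log2 ratio of -0.34. At day 7, 26 of 33 SNT cells lay below the control median and 10 below the lowest control cell, and the ratio was -0.28 among female and -0.39 among male cells.

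**Figure D1:**
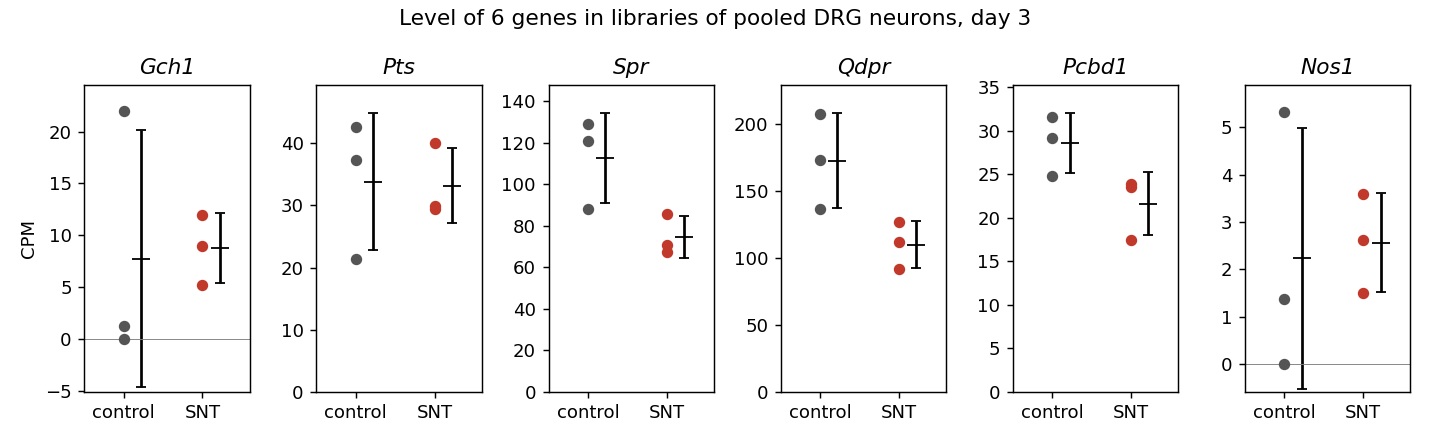
CPM (y axis) of each of the 6 genes in the 3 control and 3 SNT pooled libraries at day 3, with points for libraries and the mean and SD of each side. Spr, Qdpr and Pcbd1 have all SNT points below all control points in CPM by library total, which is not so after TMM scaling; Gch1 has 1 control library at 22 CPM and another at 0.

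Qdpr encodes dihydropteridine reductase, which regenerates BH4 from its quinonoid dihydro form. It had the lowest p of the 6 in pools. Control pools 1, 2 and 3 held 173, 207 and 137 CPM and SNT pools 127, 111 and 91.3 CPM. Every SNT library was below every control library in CPM, while after TMM scaling SNT pool 1 (133) lay just above control pool 3 (129). The log2 difference was -0.51 (SE 0.18), with an adjusted p of 0.0362 (edgeR quasi-likelihood, Benjamini-Hochberg), so it passed on p and not on size. That p did not hold up in every setting. With the same edgeR quasi-likelihood test and Benjamini-Hochberg adjustment it was 0.0904 without SNT pool 2, 0.199 without SNT pool 3, 0.0653 without control pool 1 and 0.191 without control pool 2, and it was 0.0380 without SNT pool 1 and 0.0171 without control pool 3. DESeq2 gave an adjusted p of 0.0617 and limma 0.0706, both by Benjamini-Hochberg adjustment.

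In day-3 cells Qdpr had a lowest, median and highest of 36.2, 117 and 398 CPM on the control side and 59.1, 100.3 and 320.3 CPM on the SNT side. The ranges overlapped almost fully, with 28 of 41 SNT cells under the control median and 2 control cells above every SNT cell. The log2 ratio of the means (123 ± 69.1 CPM over 41 SNT cells, 162 ± 112 CPM over 18 control cells, SD) was -0.40. In day-7 cells Qdpr had a lowest, median and highest of 90.2, 157 and 326 CPM on the control side and 53.1, 97.2 and 346 CPM on the SNT side. Here 32 of 33 SNT cells lay below the control median and 12 below the lowest control cell, with 1 SNT cell above the highest. The means of 107 ± 49.1 and 161 ± 57.2 CPM (SD) gave a log2 ratio of -0.59, which was -0.51 among female and -0.66 among male cells. Qdpr had the same sign in pools and at both days, and in 14 of 14 pooled, 9 of 9 day-3 and 11 of 11 day-7 alternatives.

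Pcbd1 encodes pterin-4a-carbinolamine dehydratase, which also works in BH4 recycling and is known as a partner of the transcription factor HNF1. Control pools 1, 2 and 3 held 31.6, 29.2 and 24.8 CPM and SNT pools 23.9, 23.5 and 17.5 CPM. The highest SNT and the lowest control library were within 1 CPM of each other. The log2 difference was -0.25 (SE 0.33, adjusted p = 0.642, edgeR quasi-likelihood with Benjamini-Hochberg). Day-3 control cells had a lowest, median and highest of 0, 19.8 and 109.6 CPM and SNT cells of 0, 13.1 and 91.8 CPM, for a log2 ratio of -0.42. Day-7 control cells had 13.3, 48.2 and 86.2 CPM and SNT cells 3.126, 33.6 and 266 CPM, for a log2 ratio of -0.11. Pcbd1 thus spread more widely over cells than Pts or Spr. It exceeded 10 CPM in 12 of 18 and 23 of 41 cells at day 3 and in 14 of 14 and 28 of 33 at day 7. The day-7 ratio was 0.27 among female and -0.69 among male cells, and 4 SNT cells above every control cell were all female. The sign of the female ratio rested on 1 SNT cell at 266 CPM, without which it was -0.06.

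Nos1 was sparse. Control pools 1, 2 and 3 held 1.38, 0 and 5.32 CPM, from 1, 0 and 3 counts, and SNT pools 3.59, 2.61 and 1.497 CPM, from 6, 3 and 3 counts. The SNT values all lay within the control range. The log2 difference was 0.49 (SE 1.14, adjusted p = 0.807, edgeR quasi-likelihood with Benjamini-Hochberg), and it ran from -0.17 without control pool 2 to 1.96 without control pool 3. In day-3 cells Nos1 had a lowest, median and highest of 0, 0 and 70.2 CPM on the control side and 0, 0.688 and 44.3 CPM on the SNT side. It was at 0 in 11 of 18 control and 20 of 41 SNT cells, and above 10 CPM in 3 (16.7%, 3.58 to 41.4) and 7 (17.1%, 7.2 to 32.1). The log2 ratio of -0.41 was 0.24 without the highest cell of each side, so day 3 gave no direction.

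In day-7 cells Nos1 had a lowest, median and highest of 0, 6.23 and 23.6 CPM on the control side and 0, 1.74 and 13.2 CPM on the SNT side. No SNT cell exceeded the highest control cell, 3 control cells exceeded every SNT cell, and 24 of 33 SNT cells were below the control median. Means of 3.256 ± 4.002 and 7.99 ± 7.304 CPM (SD) gave a log2 ratio of -1.08, from 68 and 90 summed counts, with -1.12 among female and -0.996 among male cells. The ratio was -0.98 without the highest cell of each side, -0.87 with cells thinned to 200000 counts and -0.44 with a pseudocount of 10 CPM, so it lies at the limit of 1. Nos1 exceeded 10 CPM in 5 of 14 control cells (35.7%, 12.8 to 64.9) and 3 of 33 SNT cells (9.09%, 1.92 to 24.3), intervals that overlap. At 200000 counts a cell, it was above 0 in 9 of 14 control cells (64.3%, 35.1 to 87.2) and 11 of 33 SNT cells (33.3%, 18.0 to 51.8).

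**Figure D2:**
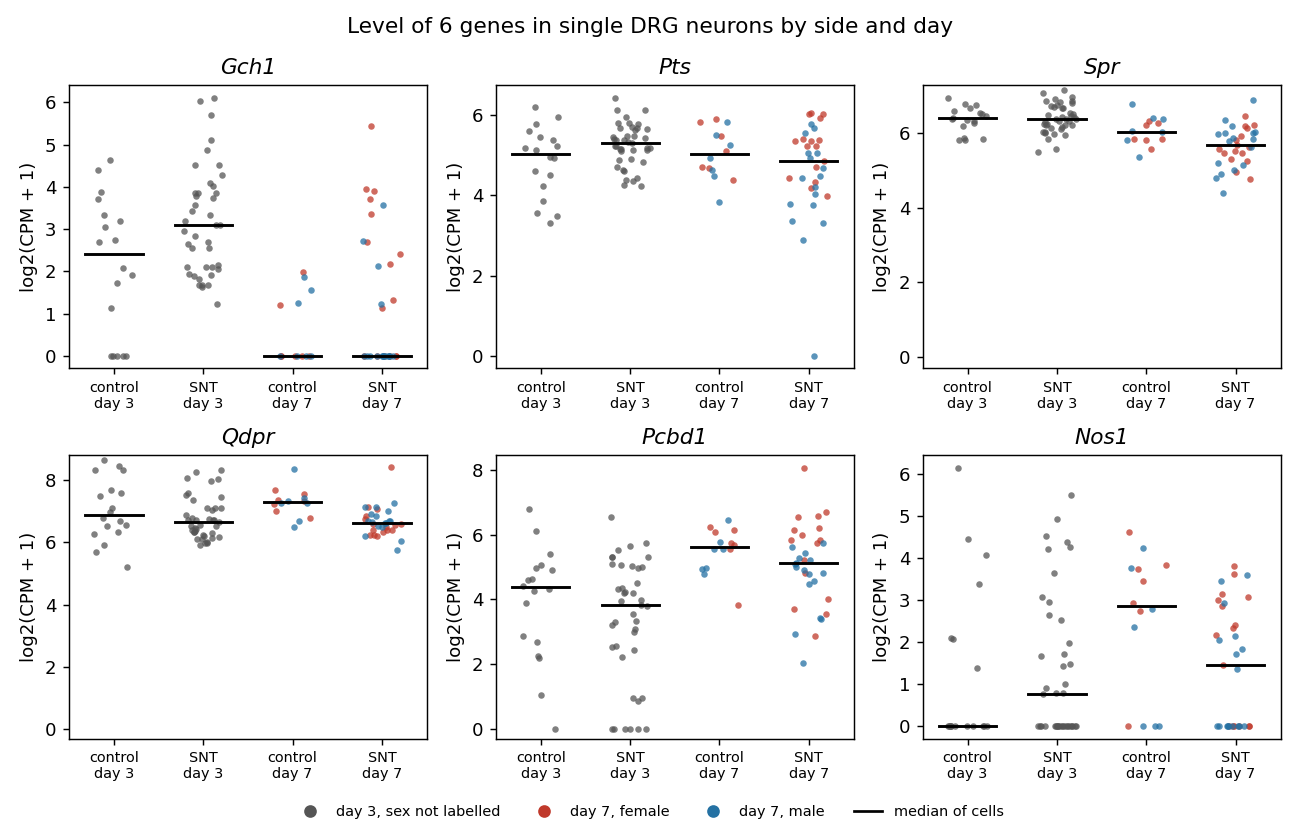
log2(CPM + 1) (y axis) of each of the 6 genes in every kept cell of the control and SNT sides at day 3 and day 7, 1 point a cell, coloured by labelled sex at day 7, with a line at the median of each group. The groups overlap for every gene; at day 7, 32 of 33 SNT cells lie below the control median of Qdpr (157 CPM).

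Per kilobase of exon Qdpr was the most abundant of the 6 genes in the pools and cells of both sides. In control pools the mean CPM per kb was 96.4 ± 19.8 for Qdpr, 34.9 ± 4.20 for Pcbd1, 31.7 ± 6.08 for Spr, 5.54 ± 1.81 for Pts, 1.24 ± 1.98 for Gch1 and 0.200 ± 0.248 for Nos1 (SD, n = 3). Pcbd1 and Spr did not differ beyond their SD, nor did Gch1 and Nos1. The same order held in SNT pools, day-3 control cells and day-7 SNT cells. In day-3 SNT cells Spr (24.3) stood above Pcbd1 (22.5), and in day-7 control cells Nos1 (0.717) stood above Gch1 (0.117), each pair within the SD over cells. By these lengths the first enzyme of the pathway had lower transcript levels than the enzymes after it. Lengths were those of all annotated exons of a gene merged, such as 6.10 kb for Pts and 0.817 kb for Pcbd1. They can exceed the length of the transcripts counted, so the order depends on this choice, and no other length was tried. Libraries were not strand-specific: the antisense gene Gm42413 shares 332 exon bases with Qdpr and Gm26995 shares 268 with Nos1, neither is in the tables, and the values of Qdpr and Nos1 are uncertain to that extent. Spr has a pseudogene, Spr-ps1, that could share its reads.

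Across cells of 1 group, Qdpr followed the markers of nonpeptidergic nociceptors (NP: P2rx3, Mrgprd, Scn11a, Lpar3) at day 3. Spearman's rho of Qdpr with the summed NP markers was 0.86 over 18 day-3 control cells (Pearson's r 0.85, and 0.80 without the 2 most extreme cells) and 0.57 over 41 SNT cells. Over the same control cells its rho was -0.79 with summed markers of large myelinated neurons (LM: Nefh, Pvalb, Ntrk2, Ntrk3) and -0.63 with those of satellite glia and Schwann cells. At day 7 the rho of Qdpr with the NP markers was 0.25 over 33 SNT cells. Pcbd1 leaned the other way over day-3 SNT cells, with 0.73 for the LM and -0.59 for the NP markers. These are descriptions over cells that share a group's animals and differ in depth, and 714 such pairs were computed.

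Gch1 and Nos1 went with each other over day-3 control cells (rho 0.74, n = 18; r 0.66) but not over day-3 SNT cells (0.03, n = 41). In day-7 control cells Nos1 went with summed markers of peptidergic neurons (PEP: Calca, Tac1, Trpv1), with a rho of 0.71 (n = 14). In day-7 SNT cells Gch1 had a rho of 0.73 with Npy, 0.58 with Sox11, 0.57 with Sprr1a and 0.50 with Atf3, all genes induced by axon injury, and of -0.65 with the LM markers (n = 33). The other injury genes checked, Jun, Gal and Gap43, are not given here, so these values do not describe the whole list. Gch1 also had a rho of 0.49 with the total count of the cell, and with 19 of 33 cells at 0 the part of depth was not tested.

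Qdpr and markers of several cell types, NP among them, were lower in SNT pools. All 4 of 4 NP markers fell, and their summed level was 2647, 2613 and 2662 CPM in control pools 1, 2 and 3 and 435, 441 and 436 CPM in SNT pools 1, 2 and 3. Mrgprd was the most abundant in control and P2rx3 in SNT pools, with Lpar3 at 0 in SNT pool 2 and Mrgprd at 0 in SNT pool 3. Of 10 markers of satellite glia and Schwann cells, 4 fell and 1 rose, and their sum was 12668, 15388 and 14894 CPM in control and 6314, 7124 and 6755 CPM in SNT pools, with Apoe the most abundant and none at 0. The PEP markers summed to 2003, 1593 and 1877 CPM in control and 807, 748 and 897 CPM in SNT pools, with 2 of 3 fallen, Calca the most abundant and Tac1 at 0 in SNT pools 1 and 2. The LM markers summed to 611, 556 and 628 CPM and 893, 804 and 839 CPM, with 2 of 4 risen and Nefh the most abundant. The part of these markers in the pooled values of the BH4 genes was not tested. In single cells the median NP sum was 1177 CPM in control and 982 in SNT cells at day 3 and 22 and 5.98 CPM at day 7. By mean CPM 0 of 4 NP genes were higher and 3 lower past the limit at each day: Mrgprd (-2.16), Scn11a (-1.43) and Lpar3 (-2.20) at day 3, with P2rx3 at 0.15, and at day 7 Scn11a (-1.57), Lpar3 (-1.27) and Mrgprd, which was at 0 in all SNT cells, with P2rx3 at -0.95. The part of these markers in the Qdpr ratios of cells was not tested. The median PEP sum was 1964 and 234 CPM at day 3 and 95.01 and 4.69 CPM at day 7 on these sides, and by mean CPM 2 of 3 PEP genes were lower in day-3 SNT cells (Calca, -1.46, and Tac1, -2.95) and 2 of 3 higher in day-7 SNT cells (Tac1 and Trpv1). The part of the PEP markers in the lower Nos1 of day-7 SNT cells was not tested. The median LM sum was 175 and 201 CPM at day 3 and 3093 and 3018 CPM at day 7, again control before SNT; by mean CPM 1 of 4 LM genes was higher in SNT cells at day 3 (Pvalb, 3.71) and 2 of 4 at day 7 (Pvalb, 4.997, and Ntrk3, 1.18), and their part in the day-7 ratios of Gch1 and Nos1 was not tested. The median glial sum was 3857 and 3886 CPM at day 3 and 5304 and 1631 CPM at day 7, also on the control and SNT sides, with 0 of 10 glial genes past the limit at either day.

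C-LTMR markers (Th, Slc17a8, Fam19a4, P2ry1) summed to 448, 585 and 520 CPM in control and 71.8, 129 and 93.8 CPM in SNT pools, and 4 of 4 fell. Of the Sst and Nppb neuron markers, 2 of 4 were measured, 1 higher and 1 lower. Macrophage and other immune markers summed to 0, 3.58 and 0 CPM in control and 8.37, 6.09 and 8.48 CPM in SNT pools, endothelium and fibroblast markers to 39.9, 36.9 and 35.5 and 27.5, 35.7 and 37.4 CPM, and erythrocyte markers to at most 12.5 CPM in any pool. Of 2 immune genes measured 1 rose (Csf1r, adjusted p = 0.0134, edgeR with Benjamini-Hochberg), of 4 endothelium and fibroblast genes 1 rose (Cldn5, adjusted p = 0.0350 by the same test), both at 0 in all control pools, and of 1 erythrocyte gene 0 changed. Neutrophil markers reached at most 1.77 CPM in any pool. Of the 6 neuronal markers, 1 rose and 0 fell in the pools by edgeR with Benjamini-Hochberg adjustment.

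In single cells, markers of immune cells and erythrocytes were past the limit on the SNT side for several lists. At day 3, 3 of 3 neutrophil markers were higher in SNT cells (median log2 ratio 5.03), from 2 of 41 SNT cells above 10 CPM of the summed list (highest 4036 CPM, S100a8 the most abundant) and 0 of 18 control cells. Macrophage and other immune markers had 1 higher and 1 lower of 3 measured at day 3, with a highest sum of 306 CPM in SNT and 73.3 CPM in control cells; 16 of 41 and 2 of 18 cells were above 10 CPM. At day 7, 5 of 5 measured immune markers were higher in SNT cells (median 1.96), and 8 of 33 SNT but 0 of 14 control cells were above 10 CPM, with a highest of 277 CPM and Cd74 the most abundant. Of the neutrophil markers 2 of 2 were higher at day 7, with 1 SNT cell above 10 CPM, at 697 CPM. Erythrocyte markers had 4 of 4 measured higher in SNT cells at day 7, with a highest sum of 4670 CPM and Hba-a1 the most abundant, but the median sum was 5.83 CPM in SNT and 9.70 CPM in control cells. At day 3, 2 of 2 measured erythrocyte markers were lower in SNT cells. Endothelium and fibroblast markers had 1 higher and 1 lower of 3 at day 3 and 1 higher and 0 lower of 3 at day 7. C-LTMR markers had 0 higher and 4 lower of 4 at day 3 and 1 higher and 1 lower of 3 at day 7. Sst and Nppb markers had 2 higher and 0 lower of 3 and 1 higher and 1 lower of 2. Of the 6 neuronal markers 0 were higher and 1 lower at day 3, and 0 were past the limit at day 7.

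Without the cells above 10 CPM of a list, the day-7 ratio of Gch1 was 1.54 for neutrophil, 1.61 for immune and 1.67 for erythrocyte markers, and that of Nos1 was -1.17, -1.22 and -1.24, so both stayed past the limit of 1. The day-7 ratio of Pcbd1 turned from -0.11 to 0.02 without the immune and 0.08 without the erythrocyte marker cells. At day 3 the 6 genes stayed within the limit without the neutrophil or immune marker cells. Without the erythrocyte marker cells, which left 9 control and 33 SNT cells, Pcbd1 was at -1.11 and Nos1 at -1.01.

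Among 9277 genes averaging 10 CPM or more, those most like each of the 6 over 59 kept day-3 cells were Gga2 for Gch1 (rho 0.55), Maged1 for Pts (0.50), Tmed3 for Spr (0.61), Zmat4 for Qdpr (0.73), Susd2 for Pcbd1 (0.81) and Zc3hc1 for Nos1 (0.54). Over the 47 day-7 cells the same pairs had a rho of 0.40, 0.04, 0.23, 0.16, 0.03 and 0.03. After the leading gene came Plscr3 (0.53) and Tbc1d20 (0.52) for Gch1, 9430020K01Rik (0.50) and Wbscr27 (0.50) for Pts, and Yif1a (0.56) and Tomm34 (0.53) for Spr. For Qdpr they were Uaca (0.73) and Grik1 (0.73), for Pcbd1 Slitrk3 (0.79) and Cntn1 (0.77), and for Nos1 A230046K03Rik (0.49) and Mrpl20 (0.44). At day 7 these further genes had a rho of 0.36 (Plscr3) and 0.52 (Tbc1d20) with Gch1, -0.27 (9430020K01Rik) and 0.21 (Wbscr27) with Pts, 0.39 (Yif1a) and 0.43 (Tomm34) with Spr, 0.24 (Uaca) and -0.13 (Grik1) with Qdpr, -0.04 (Slitrk3) and 0.05 (Cntn1) with Pcbd1, and 0.07 (A230046K03Rik) and 0.38 (Mrpl20) with Nos1. Since the genes were picked as the highest at day 3, lower values in other cells can come from that choice.

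Around the 6 genes, 29 further genes of the pathway were read in 5 lists: BH4 synthesis and salvage, BH4-dependent enzymes, monoamine partners, arginine, citrulline and NOS regulation, and NO receptor and cGMP. In pools 24 of 29 were measured, 1 rose and 5 fell, against 16% changed among all genes, with a median log2 difference of 0.20. DESeq2 gave 1 and 3, limma 1 and 3, and edgeR with library size alone 0 and 5. In the single lists, BH4 synthesis and salvage had 0 higher and 1 lower of 4 measured, BH4-dependent enzymes 0 and 1 of 3, monoamine partners 0 and 1 of 2, arginine and NOS regulation 0 and 2 of 9, and NO receptor and cGMP 1 and 0 of 6. Th, tyrosine hydroxylase, fell from a mean of 361 to 67.7 CPM (log2 -2.27, adjusted p = 7.3e-13, edgeR with Benjamini-Hochberg). Th is also 1 of the 4 C-LTMR markers, all of which fell in the pools, and the part of that neuron type in the fall of Th was not tested.

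In the list of arginine, citrulline and NOS regulation 2 of 9 genes fell and 0 rose, with a list median of 0.26. Ass1, which makes the precursor of arginine from citrulline, fell from a mean of 115 to 34.3 CPM (log2 -1.55, adjusted p = 8.2e-07, edgeR with Benjamini-Hochberg). Slc7a2, an arginine transporter, fell from 87.3 to 26.1 CPM (-1.57, adjusted p = 1.2e-05, edgeR with Benjamini-Hochberg). Slc7a1, another arginine transporter, was at 0.54 (adjusted p = 0.0152, edgeR with Benjamini-Hochberg), under the limit on size, and Asl, which makes arginine from the product of Ass1, at 0.17. Dynll1 of this list was at 0.58 (adjusted p = 0.00285, edgeR with Benjamini-Hochberg), also under the limit on size. In cells Ass1 had a log2 ratio of -1.52 at day 3 and -0.90 at day 7, while Slc7a2 was at -0.06 and -0.46 and Slc7a1 at 0.74 and 0.30.

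Pde2a, a cGMP phosphodiesterase, rose from 24.3 to 45.7 CPM in pools (1.104, adjusted p = 0.00483, edgeR with Benjamini-Hochberg), but the difference was 0.942 without control pool 2 and 0.945 with library size alone, both under the limit. In cells it had the opposite sign, with a log2 ratio of -0.49 at day 3 and -0.25 at day 7. Cbr1, a carbonyl reductase that can act in salvage, was at 0.999 (adjusted p = 0.00028, edgeR with Benjamini-Hochberg), just under the limit on size, and passed in 3 of 6 fits that each left out 1 library (1.13 without SNT pool 2, 1.18 without control pool 2, 1.01 without control pool 3). Ddc, aromatic amino acid decarboxylase, had 0, 3.58 and 7.099 CPM in control pools and 0 in all SNT pools, at least 5.29-fold lower against 3 counts over the SNT side (adjusted p = 0.0345, edgeR with Benjamini-Hochberg); it passed in 1 of 5 fits that each left out 1 library. By the same test its adjusted p was 0.0966 without SNT pool 1, 0.0770 without SNT pool 2, 0.0976 without SNT pool 3 and 0.0765 without control pool 2. Akr1b3, aldose reductase, was counted in control pool 2 alone, at 32.5 CPM, so its call (adjusted p = 0.00101, edgeR with Benjamini-Hochberg) rests on 1 library. With the genes at 0 on 1 side set to their bound, the median of the 24 genes was also 0.20.

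Among day-3 cells 25 of 29 genes were measured, 0 were past the limit upward and 4 downward, against 13.5% of all genes past it, with a median log2 ratio of -0.06. The 4 lower were Th (-6.995), Ass1, Prkg1 (-1.19), a cGMP-dependent kinase, and Ddc (-1.12). The Th ratio came from few cells, with 10 of 18 control cells at 0 and a highest of 4804 CPM. At day 7, 25 were measured, 4 were higher and 2 lower, against 10.3% of all genes past the limit, with a median of 0.02. The 4 higher were Th (2.78, from 1 cell at 679 CPM), Nos1ap, an adaptor of Nos1 (1.95), Prkg2 (1.18) and Gucy1a2 (1.04), a subunit of the nitric oxide receptor. The 2 lower were Agmo (-1.19) and Gucy1a3 (-1.32).

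**Figure D3:**
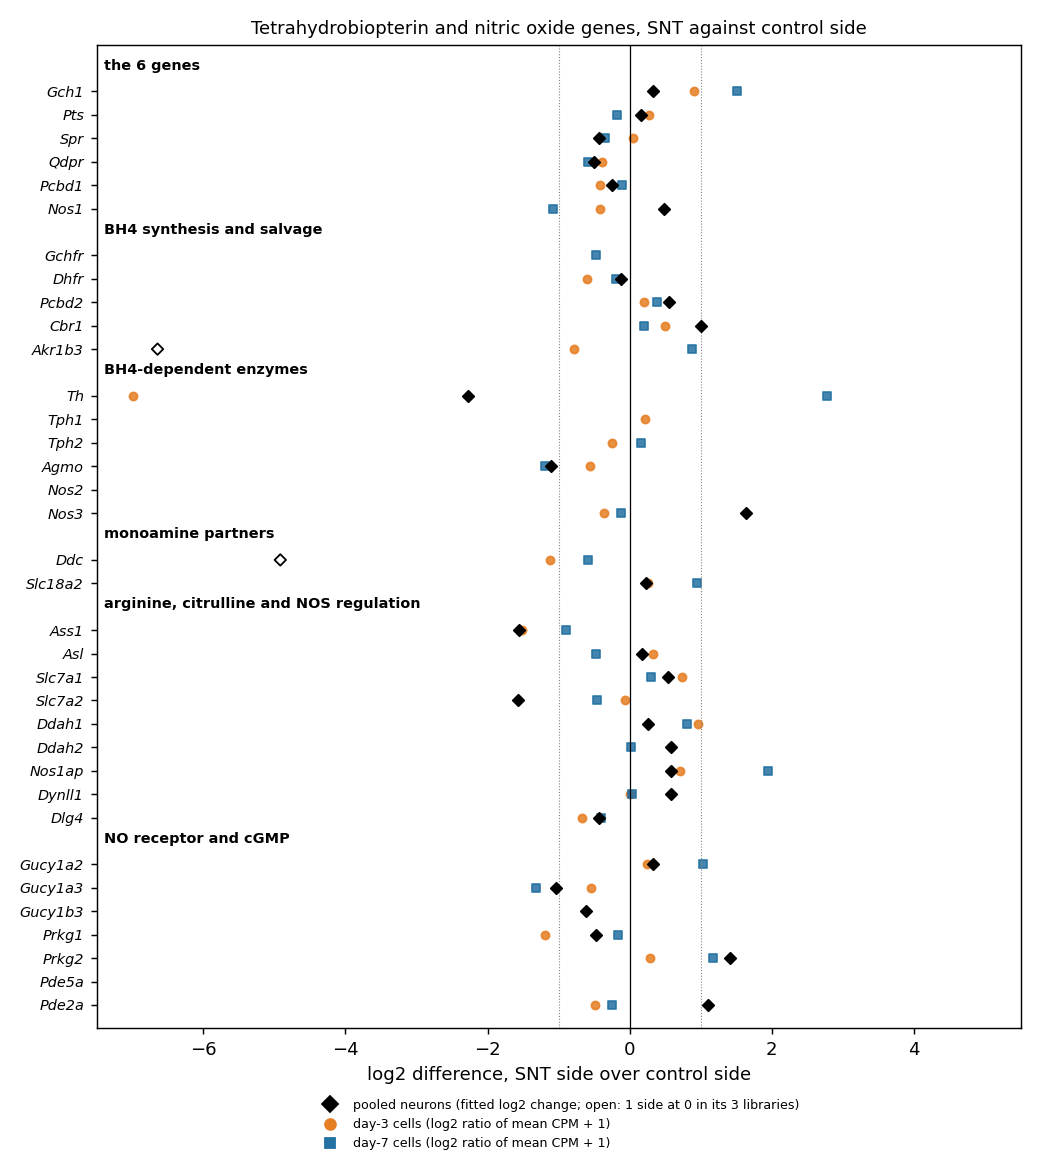
Log2 difference, SNT over control (x axis), of the 6 genes and the other pathway genes in pools, day-3 cells and day-7 cells; open diamonds are genes at 0 in all 3 libraries of 1 side, whose fitted difference is no bound, and dotted lines mark a log2 difference of 1 in either direction. Of the 6 genes, Gch1 (1.505) and Nos1 (-1.08) are beyond 1 at day 7 and the rest are within it.

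The upstream 250 bases of each gene's start were taken from RefSeq (GRCm38.p6; the deposited tables used mm9) and searched on both strands for TGACGTCA, TGANTCA and CCAAT, found in 1.79%, 7.81% and 37.4% of 32851 promoter windows. All 6 genes had a promoter entry. Gch1 and Qdpr, shown because they alone held any of these letters, had CCAAT at -70 for Gch1 and ATTGG, its reverse complement, at -244 and -65 for Qdpr, with the letters in capitals. The windows are chr14:47189414-47189663 (minus strand) for Gch1 and chr5:45450230-45450479 (minus strand) for Qdpr. A match is a description of the letters only.
Gch1: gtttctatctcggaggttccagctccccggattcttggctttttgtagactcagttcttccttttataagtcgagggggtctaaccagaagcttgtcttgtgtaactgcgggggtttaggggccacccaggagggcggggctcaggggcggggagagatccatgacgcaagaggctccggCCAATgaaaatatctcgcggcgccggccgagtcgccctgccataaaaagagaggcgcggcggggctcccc
Qdpr: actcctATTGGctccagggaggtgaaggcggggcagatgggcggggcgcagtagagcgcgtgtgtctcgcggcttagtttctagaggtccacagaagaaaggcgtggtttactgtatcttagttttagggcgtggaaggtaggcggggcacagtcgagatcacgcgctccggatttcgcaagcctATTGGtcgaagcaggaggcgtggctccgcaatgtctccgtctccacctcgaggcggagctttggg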

How the data were processed

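The values analysed are expected counts per gene that the authors deposited, made from Smart-seq2 reads with Bowtie2 and RSEM on mm9 (CASAVA 1.8.2 before that; other versions not given in the sources used here); the table is named for TPM, but its values sum to different totals (223967 to 2003817) and 60.7% to 93.6% of values above 0 are whole (tolerance 0). CPM is value over the library total times 1000000. For the pools, expected counts were rounded (totals moved by at most 0.00757%) and fitted with edgeR 4.0.16 (glmQLFit, TMM, prior count 0.125, mean of at least 1 CPM), with limma 3.58.1 and DESeq2 1.42.0 as alternatives, in R 4.3.3. Changed means adjusted p below 0.05 and log2 difference beyond 1. Cells were compared by log2 of (mean CPM + 1) ratios with scipy 1.17.1, pandas 2.3.3, numpy 2.4.6 and matplotlib 3.10.9 (Python 3.11.15); background genes had at least 1 CPM on the higher side. Shares of cells have exact Clopper-Pearson 95% intervals, and floors are 3 counts. The steps were tested on simulated data. For 27 genes, symbols that a spreadsheet had turned into dates were replaced by the symbols of the authors' outlier-removed version. Exon lengths are from GENCODE M21 and promoters from RefSeq.

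The 6 genes and the lists (5 pathway lists, injury genes, and markers of neurons, NP, PEP, LM, C-LTMR, Sst and Nppb neurons, glia, immune cells, neutrophils, endothelium and fibroblasts, and erythrocytes) were chosen with earlier results of these data known. Named genes were the 6, the listed genes past the limits, and the 3 genes most like each of the 6 by Spearman's rho over day-3 cells. Slc7a1, Asl and Dynll1 of the arginine list are also named, though they met neither the pooled criteria nor the limit in cells. Some marker and injury genes not past a limit are named as well. The check of overlap under TMM scaling, the ratios by sex without the highest SNT cell, the list fits with a library left out and the ratios without cells above 10 CPM of other cell types' markers were chosen after the data were seen, as was Cbr1, named for a value near a limit. 4 genes of the lists as first drawn up are not reported here, and all list counts, sums and medians leave them out.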

Additional observations from a re-analysis of the deposited data

Results flagged for a closer look

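Several differences had opposite signs in 2 sets of cells; none of these contrasts was tested, and day 3 and day 7 also differ in strain, reads and sequencer. Pts had a log2 ratio of 0.27 at day 3 and -0.18 at day 7, and at day 7 of 0.045 among female and -0.46 among male cells. Spr was at 0.0482 at day 3 and -0.34 at day 7. Pcbd1 was at 0.27 among female and -0.69 among male day-7 cells. Without the highest female SNT cell of each gene, a step that can only lower a ratio, the female ratio was -0.02 for Pts and -0.06 for Pcbd1. For Pcbd1 the opposite sign thus rested on 1 cell at 266 CPM. For Pts the female ratio was near 0 with or without the highest cell. The 4 highest female SNT cells for Pts were close to each other, at 64.9, 64.2, 63.6 and 59.5 CPM.

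Among the 7 day-3 SNT cells removed as outliers, 1 held Pts at 136 CPM, from 34 counts in a library of 250113. The highest kept SNT cell held 84.4 CPM and the highest kept control cell 72.0 CPM. Another removed SNT cell, at 78.1 CPM, was above the kept control cells but not above the highest kept SNT cell.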

How the results depend on the processing

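In the pools 76 of 82 alternatives for the 6 genes kept sign and side of the criteria. In cells 48 of 54 kept sign and side of the limit of 1 at day 3 and 55 of 66 at day 7. The ratio moved by less than the SD over cells in 54 of 54 and 65 of 66. That SD is of single cells, so this count does not show that a ratio of means is stable. Nos1 at day 3 moved from -0.41 to 0.75 with medians and stayed within it. The limit was crossed by Gch1 at day 3 with a mean of log2 values (1.04) and a pseudocount of 0.1 (1.004), by Gch1 at day 7 with medians (0), a mean of log2 values (0.64), a pseudocount of 10 (0.37), thinning (0.73) and male cells alone (0.28), and by Nos1 at day 7 with that pseudocount (-0.44), thinning (-0.87), male cells alone (-0.996) and without the highest cell of each side (-0.98). By adjusted p alone 3350 genes and 1 of the 6 passed. Leaving out 1 pooled library at a time, the number of the 6 that changed ran from 0 to 1, and the log2 difference from -0.25 to 3.61 for Gch1, -0.12 to 0.37 for Pts and -0.17 to 1.96 for Nos1; Gch1 and Nos1 hold few counts, and the cause was not tested. Gch1 without control pool 3 was at -0.17. Pts with library size alone was at -0.00056. The sign of Nos1 at day 3 turned in 3 of 9 alternatives and that of Spr in 1 of 9; at day 7 Pts and Pcbd1 turned in 1 of 11 each, with female cells alone. Shares of cells moved past their interval in 12 of 36 alternatives at day 3 and 13 of 36 at day 7, with lower levels of detection or thinning.

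With library number as a replicate block, 2009 genes changed and Qdpr was at -0.48 (adjusted p = 0.0385, edgeR with Benjamini-Hochberg). Same-numbered libraries had correlated deviations of 0.131, 0.00218 and -0.0281, so they share only a number. Gch1 and Nos1 had at most 20 counts in any pool, which limits their precision.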
